A study of Mus musculus with 250 samples.

Results

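Single cells of the Lrig1 lineage were divided by their own reads of Ly6a, the gene for the surface antigen Sca1 (stem cell antigen 1), and the other genes were compared between both groups. The cells were chosen by Ly6a itself. A cell counted as Ly6a-expressing at 10 or more CPM (reads of a gene per 1e6 reads of that cell), and as Ly6a-negative at 0 Ly6a reads. Of 250 cells in all, 131 were Ly6a-expressing and 117 Ly6a-negative, and 2 cells in between were left out. All cells came from tail epidermis of mice of genotype Lrig1CreER/Rosa-TdTomato, in which an inducible Cre under Lrig1 control switches on a red reporter, and were sorted for Sca1 protein on their surface to enrich for the upper hair follicle. All 3 regions therefore share the allele pair, the Lrig1 lineage label, the Sca1 gate and the time of 8 weeks, which the labels follow with an abbreviation they do not spell out. Cells fell into a control region (non-memory, 26 expressing and 57 negative cells), a region of distal memory (41 and 39) and the wound bed (64 and 21), each processed on 2 plates, 1 per batch. Lrig1-driven Cre marks cells that expressed Lrig1 at labelling and their descendants, so it does not fix what a cell is at collection. The labels name no animal, so cells of a plate may share an animal, each region is 1 sample, and no test or p-value is given. The comparison asks which other genes go with Ly6a RNA in cells that all passed the protein gate.

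Sca1 is a small GPI-anchored protein of the Ly6 family, whose genes lie in clusters, and it is used in mouse skin to separate cells of the upper follicle and the epidermis between follicles from those of the lower follicle. The upper hair follicle joins the surface epidermis to the sebaceous gland. Its inner duct cells make Krt79, and its outer basal cells attach to the basement membrane through hemidesmosomes, as basal epidermal cells do.

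Ly6a lay at chr15:74994877-74998031 on the minus strand (GRCm38, GENCODE M21). In batches 1 and 2, 9 of 28 and 17 of 56 control cells were Ly6a-expressing, 16 of 32 and 25 of 49 distal cells, and 22 of 30 and 42 of 55 wound bed cells. Median Ly6a levels in the expressing cells of the same plates were 201 and 398 CPM in control, 261 and 502 in distal, and 585 and 613 in the wound bed. These values describe the rule and are not a result. The expressing cells nearest the threshold had 16.1 CPM (control, batch 1), 21.6 (control, batch 2, from 1 read) and 23.1 (distal, batch 2). The 2 cells just outside had 8.76 CPM (control, batch 1, 1 read) and 7.53 (distal, batch 2, 2 reads). A count of 0 allows up to 3 reads, and in 110 of the 117 negative cells 3 reads would have reached 10 CPM, so most negative cells are not shown to be free of Ly6a RNA. With a Ly6a read in 32.1%, 51.9% and 75.3% of all control, distal and wound bed cells, thinning each cell to 10000 reads gave 26.8%, 44.5% and 67.4%.

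**Figure D1:**
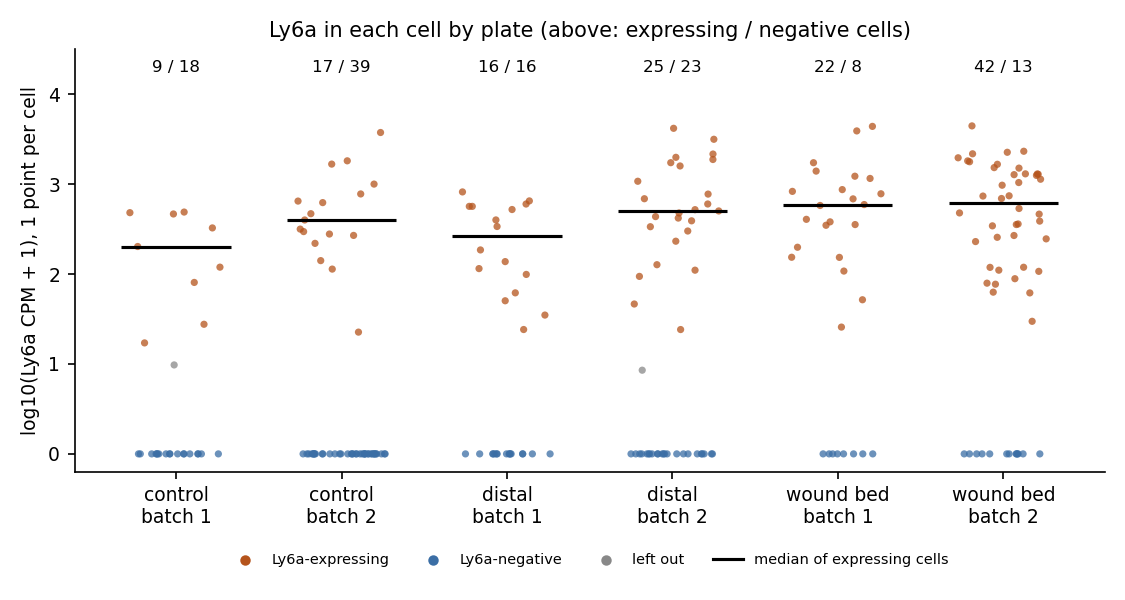
Ly6a in every cell as log10(CPM + 1) on the vertical axis, 1 column of points per plate, with the median of the expressing cells as a line and the number of expressing and negative cells above. The expressing cells made up 9 of 28 to 42 of 55 cells of a plate, and the 2 grey points are the cells left out.

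The negative cells were not the shallower ones in general. Median reads per cell in expressing against negative cells were 139879 and 62335 in control batch 1, 49121 and 74429 in control batch 2, 76823 and 126870 in distal batch 1, 28204 and 42432 in distal batch 2, 52869 and 34314 in wound bed batch 1, and 33023 and 49475 in wound bed batch 2. Median genes per cell at 10000 reads were 1229 and 1136 in control, 1358 and 1352 in distal, and 1236 and 1091 in the wound bed. Mitochondrial transcripts took a median of 22.5% and 21.7% of reads in control, 29.3% and 36.2% in distal, and 27.8% and 33% in the wound bed. Predicted genes took over 10% of the other reads in 6 expressing and 16 negative control cells, of which 5 and 13 were in batch 1, and in 7 other cells of the groups. Markers of other cell types were near 0 in both groups. Reads of 10 immune markers were in 5 of 131 expressing and 4 of 117 negative cells, of 6 fibroblast markers in 5 and 9, of 6 endothelial markers in 3 and 3, and of 4 melanocyte markers in 4 and 7. The summed level of each of these lists was at a median of 0 CPM in both groups and at most 3940 CPM in a cell. Cd3e, Trdc, Cd207, Col1a2, Pdgfra, Cdh5, Emcn, Egfl7 and Tyr had no read in either group. The part of depth, mitochondrial share and predicted genes in the differences below was not tested.

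A gene was considered in a region when the share of cells with a read, averaged over both groups, was 15% or more. Its ratio was log2((mean CPM in expressing cells + 1)/(mean CPM in negative cells + 1)), with every cell weighted equally. It met the size rule when this ratio was at least 1 in size, when the ratio had the same sign within each batch, and when the expected share of cells with a read at 10000 reads differed by at least 10 percentage points in the same direction. "Higher" and "lower" below mean in Ly6a-expressing cells and are used alone only of genes meeting this rule, which is a rule of size and not a test. With 1 sample a region there is no replicate error to set such counts against, so they do not show how many genes differ between the groups beyond the spread between cells. In control, 230 of 4065 genes considered (5.66%) were higher and 122 (3.0%) lower. In the distal region 265 of 4886 (5.42%) were higher and 195 (3.99%) lower. For the wound bed 353 of 3600 (9.81%) were higher and 194 (5.39%) lower. The median log2 ratio of all genes considered was -0.03, 0.12 and 0.16.

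The regions, which share no cells, had few of these genes in common. Of 2960 genes considered in all 3 regions, 5 (0.169%) were higher in each and 0 (0%) lower in each. Distal and wound bed shared 29 higher genes among those considered in both. These were 14.8% of the distal list, where 10.3% of all genes considered in both were higher in the wound bed. They were 8.53% of the wound bed list, where 5.94% of all were higher in distal. The 11 shared lower genes were 7.64% of the distal list against 4.73% of all, and 7.05% of the wound bed list against 4.37%. Control and distal shared 22 higher genes, 10.9% of the control list against 5.4% of all, and 3 lower genes, 2.5% against 3.95%. Control and wound bed shared 23 higher genes, 14.3% of the control list against 10.2% of all, and 5 lower genes, 5.26% against 4.81%. Of 5492 genes considered in any region, 49 were higher in 1 and lower in another. Of the same genes 64 were higher and 19 lower in 2 or more regions. Most genes meeting the rule in 1 region thus did not meet it in a second, and the text below turns on those that did or that belong to a list.

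Most genes of the upper follicle and its duct that were considered were lower in the wound bed, and some in the distal region. Of 15 list members, 6 of 8 considered were lower in the wound bed, 4 of 11 in the distal region and 0 of 11 in control. None was higher. The shares of all genes considered that were lower are 5.39%, 3.99% and 3.0% in the same order. Median log2 ratios of the list were -2.91, -1.05 and -0.68, against 0.16, 0.12 and -0.03 for all genes. In the distal region 3 of the 11 lay above 0 in both batches and 5 below 0 in both. The list's summed level in distal expressing and negative cells had medians of 1474 and 1037 CPM in batch 1. In batch 2 these medians were 1111 and 2390 CPM. Cst6, which encodes cystatin E/M, an inhibitor of cysteine proteases (chr19:5344705-5349574, minus strand), had mean levels in expressing and negative cells of 32.1 and 5675 CPM in wound bed batch 1 and of 376 and 36720 CPM in batch 2. In the distal region these levels were 65.3 and 893 CPM in batch 1 and 236 and 10140 CPM in batch 2. In control they were 1561 and 2248 CPM in batch 1 and 2532 and 17410 CPM in batch 2. All 6 plates thus had the higher mean in the negative cells, which the rule itself demands of the distal and wound bed plates. The log2 ratios were -6.59 in the wound bed and -5.22 in the distal region, and -2.52 in control, where the expected shares of cells with a read at 10000 reads were 42% and 44.8% and the rule was not met. The difference lay in how much the cells carried more than in how many had a read: 29 of 64 expressing and 13 of 21 negative wound bed cells had 1. Single cells of the wound bed ranged from 0 to 8146 CPM in the expressing group (median 0) and from 0 to 247600 CPM in the negative group (median 93.8). Ranges overlapped, and 1 negative cell gave 47.4% of that group's mean in the wound bed and 69.8% in the distal region. Cst6 was lower in the wound bed under all 14 alternative settings and in the distal region under 13. Not all of the 14 can change a call. Dropping the filter on low genes cannot undo one for any gene. Leaving out cells of over 500000 reads removed no control or wound bed cell.

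Krt79, the keratin of the upper duct (chr15:101929332-101940324, minus strand), was read in 5 of 64 expressing wound bed cells (7.81%, exact Clopper-Pearson 95% interval 2.59 to 17.3%) and 11 of 21 negative ones (52.4%, 29.8 to 74.3%). Such intervals cover counting error only, because without molecular identifiers several reads can stem from 1 molecule. At 10000 reads per cell the expected shares were 7.62% and 45.6%. Mean levels in expressing and negative cells were 0 and 3190 CPM in wound bed batch 1, 256 and 2223 CPM in batch 2, 199 and 2244 CPM in distal batch 1, and 155 and 2993 CPM in distal batch 2. The log2 ratios were -3.94 in the wound bed and -3.95 in the distal region, where 4 of 41 and 9 of 39 cells had a read. The wound bed ratio met the rule in all 14 alternatives and the distal one in 10, with -0.88 and no call when counts were summed over the cells of a group and scaled by TMM (trimmed mean of M-values). In control the batches went opposite ways, with 2564 against 1587 CPM in batch 1 and 705 against 2684 CPM in batch 2.

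Defb6, a beta-defensin (chr8:19225478-19228209, plus strand), was lower in the wound bed at 811 against 10990 CPM (log2 ratio -3.76), with reads in 16 of 64 and 10 of 21 cells. It was lower in the distal region at 767 against 2052 CPM (-1.42), with reads in 8 of 41 and 22 of 39 cells. The distal ratio turned to 1.48 with counts summed and scaled by TMM and to 1.30 with counts summed alone, a sum in which cells of over 500000 reads weigh most. Krt17, a keratin of follicle and stressed epidermis (chr11:100256217-100261029, minus strand), was lower in the wound bed at 16.1 against 1069 CPM (-5.97), where 8 of 64 and 9 of 21 cells had a read and no expressing cell of batch 1 did. Its distal ratio of -0.98 missed the rule, with reads in 7 of 41 and 17 of 39 cells. Fst, a secreted antagonist of activin, was lower in the wound bed only (-1.56, 5 of 64 against 6 of 21 cells), with a ratio of -0.36 in batch 2. Gata6, a transcription factor of duct cells, had too few cells with a read to be considered in the wound bed. It had 3 reads in 1 of 64 expressing cells and 40 reads in 5 of 21 negative cells, a ratio of summed reads of 45 with a counting interval from 14.3 to 228. Elsewhere it was read in 7 of 26 and 16 of 57 control cells (-1.08, with batches of opposite sign) and in 6 of 41 and 3 of 39 distal cells. Lrig1 itself was read in 4 of 26 and 14 of 57 control cells, 9 of 41 and 5 of 39 distal cells, and 0 of 64 and 1 of 21 wound bed cells. It met the rule in no region, and Sostdc1, an inhibitor of BMP and Wnt signals, did not meet it either, at log2 ratios of -0.68, 0.65 and -0.44.

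**Figure D2:**
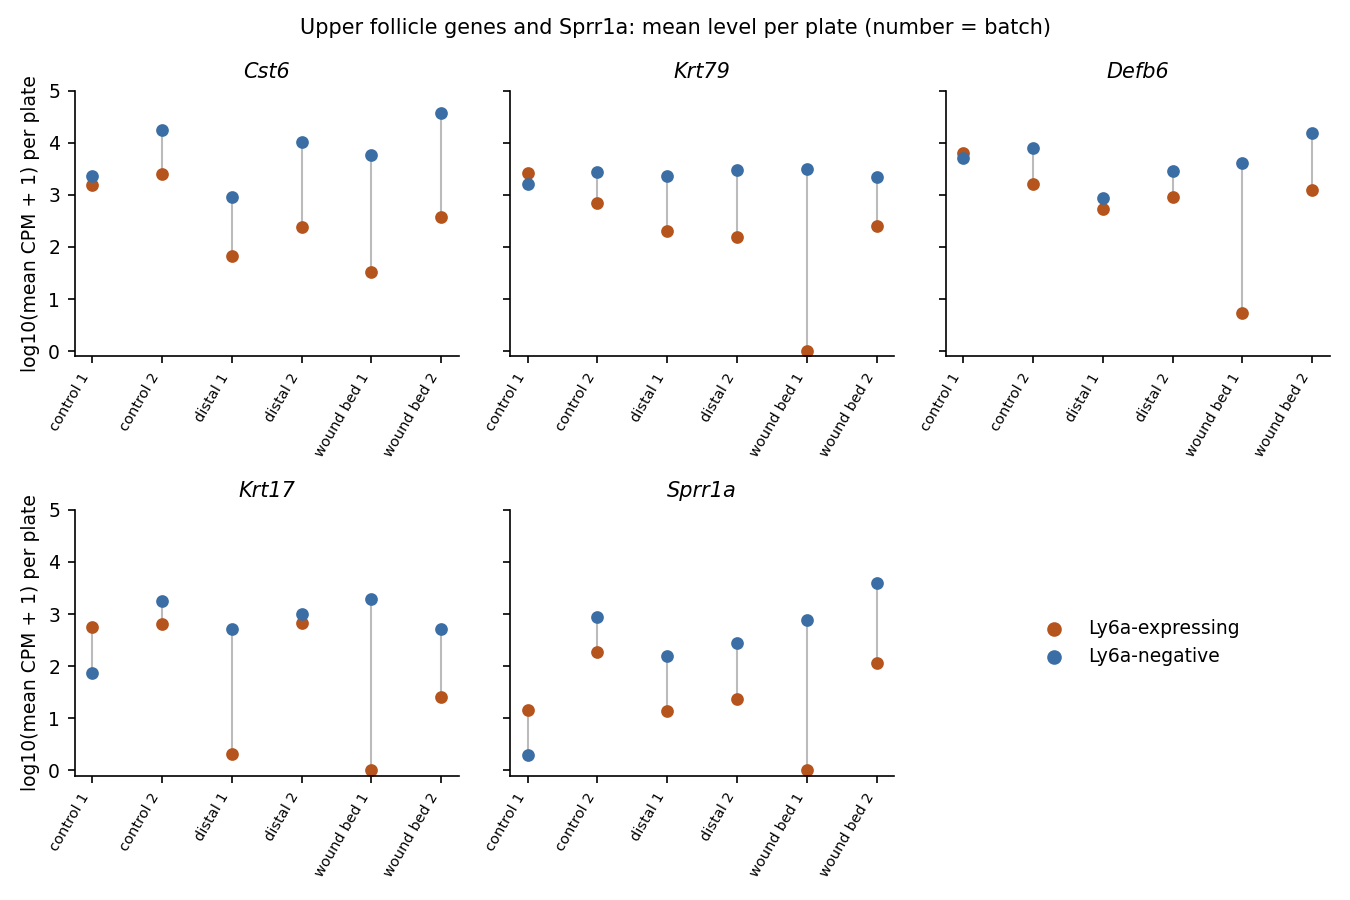
Mean level per plate as log10(mean CPM + 1) on the vertical axis for 4 upper follicle genes and Sprr1a, with a pair of points per plate for Ly6a-expressing and Ly6a-negative cells joined by a grey line; batch numbers follow the region names. In the wound bed and distal plates the negative cells lie above for all 5 genes, whereas the control plates differ in order for Krt79, Defb6, Krt17 and Sprr1a. Where a gene met the size rule in a region, the rule itself demands the same order in both batches.

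Within the wound bed these genes were read largely in the same negative cells. All 11 negative cells with a Krt79 read also had Cst6 reads, 9 had Defb6, 9 had Krt17, 8 had Sprr1a and 6 had Klk7. Among the 10 negative cells without Krt79, 2 had Cst6, 1 had Defb6 and 0 had Krt17, Sprr1a or Klk7. Krt5, the basal keratin, ran the other way among negative cells, with reads in 4 of the 11 and 9 of the 10. The 5 expressing cells with Krt79 all had Cst6, Defb6 and also Krt5, which 48 of the 59 without Krt79 had as well, and of the 59 without, 24 had Cst6, 11 had Defb6 and 4 had Krt17. In the distal region 8 of 9 negative cells with Krt79 had both Cst6 and Defb6. In control 21 of 26 such negative cells had both, and so had 6 of 9 expressing cells with Krt79. The Ly6a-negative cells of the wound bed were thus a mixture, in which 11 of 21 cells carried Krt79 reads together with Cst6. Reads of the upper follicle list reached 327900 CPM in 1 negative wound bed cell, so that the other genes of that cell shared the remaining reads. The part of this in the genes that are higher in expressing cells was not tested.

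**Figure D3:**
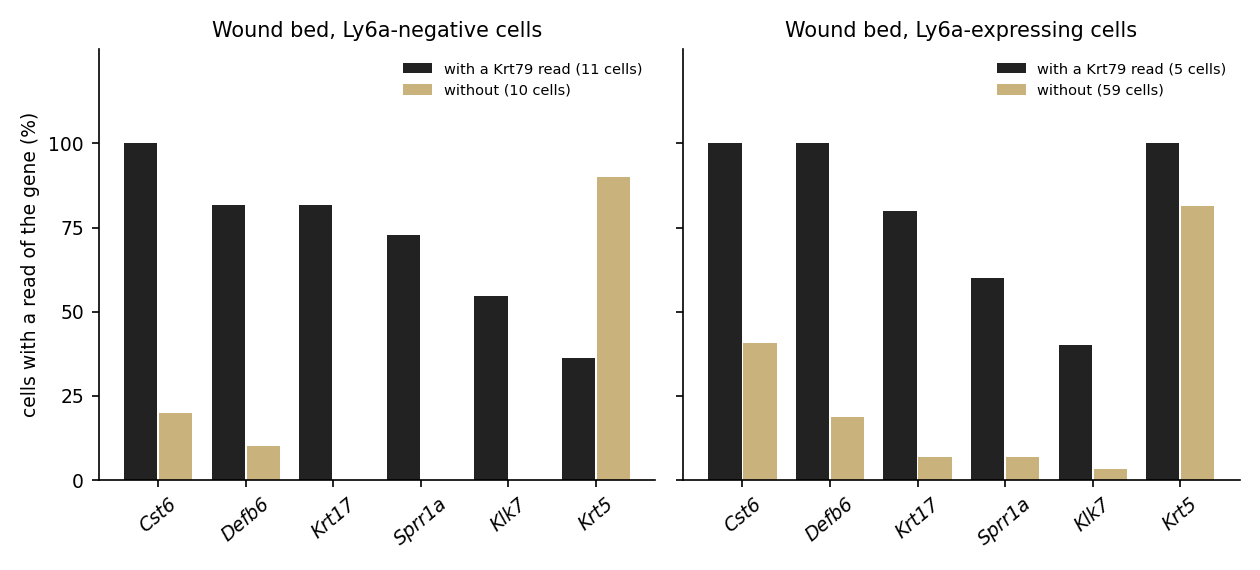
Share of wound bed cells with a read of each gene (percent, vertical axis), for cells with and without a Krt79 read, in Ly6a-negative cells on the left and Ly6a-expressing cells on the right. Of the 11 negative cells with Krt79 all had Cst6 and 4 had Krt5, and of the 10 without it 2 had Cst6 and 9 had Krt5.

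Promoter windows from 250 bases before to 50 bases after the gene start (RefSeq, GRCm38.p6) show the sequence next to genes on both sides of the contrast. Of 11 genes looked up, 6 had a window. Both strands were searched for AGATAA, a core that GATA factors bind, and for TGANTCA, the AP-1 site, and no match of one overlapped a match of the other. Windows of 4 of the 6 genes held AGATAA, namely Krt79, Defb6, Col17a1 and Stfa1, and 0 of 6 held TGANTCA. Of all 32851 windows, 11.2% held the former and 7.81% the latter. The windows of 2 genes that were lower and 1 that was higher are given 5′ to 3′ on the gene's strand, with the match in capitals: Krt79 at chr15:101940275-101940574 (minus strand), Defb6 at chr8:19225228-19225527 (plus strand) and Col17a1 at chr19:47691993-47692292 (minus strand).
Krt79: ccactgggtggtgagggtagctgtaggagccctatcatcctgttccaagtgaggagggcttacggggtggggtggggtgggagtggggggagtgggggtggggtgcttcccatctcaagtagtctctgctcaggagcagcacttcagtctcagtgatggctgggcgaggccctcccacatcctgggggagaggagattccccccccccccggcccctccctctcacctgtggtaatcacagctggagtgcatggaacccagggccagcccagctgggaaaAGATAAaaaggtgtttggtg
Defb6: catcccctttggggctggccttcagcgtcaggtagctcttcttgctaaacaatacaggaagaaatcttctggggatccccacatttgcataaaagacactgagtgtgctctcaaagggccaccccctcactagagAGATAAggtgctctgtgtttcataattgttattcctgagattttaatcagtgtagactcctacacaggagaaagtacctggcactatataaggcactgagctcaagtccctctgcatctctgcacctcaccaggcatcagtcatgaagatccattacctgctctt
Col17a1: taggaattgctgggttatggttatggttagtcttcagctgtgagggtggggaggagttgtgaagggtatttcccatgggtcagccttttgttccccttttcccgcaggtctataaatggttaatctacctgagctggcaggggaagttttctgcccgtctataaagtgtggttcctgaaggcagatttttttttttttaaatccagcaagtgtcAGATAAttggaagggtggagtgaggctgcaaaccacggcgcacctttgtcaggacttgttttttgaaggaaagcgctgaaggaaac
The match is in genes of both directions, and a match is no evidence of binding.

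Further genes, named by the ranking or by several lists, were lower in the wound bed. Sprr1a, a cornified envelope precursor, stood at 75.1 against 2749 CPM (log2 ratio -5.18, 7 of 64 against 8 of 21 cells). Klk7, a protease that sheds corneocytes, stood at 38.4 against 1343 CPM (-5.09, 4 of 64 against 6 of 21 cells). Skint10, of the Skint family of epidermal membrane proteins, stood at 9.32 against 1500 CPM (-7.18, 4 of 64 against 5 of 21 cells). Each of these means rested on few cells, since 1 cell gave 44.7%, 48.9% and 54.6% of the mean in the negative group. These genes were read in too few distal cells to be considered there, but their means in expressing cells were also under those in negative cells in both batches, with Sprr1a at 18.9 against 226 CPM. Calml3, a calmodulin-like protein (-1.98), and Cstb, the cytosolic cystatin B (-1.94), were lower with more cells behind them, at 24 of 64 against 12 of 21 cells and 49 of 64 against 19 of 21. The epithelial adhesion genes Epcam (-1.52, 10 of 64 against 8 of 21 cells) and Cdh1, which encodes E-cadherin (-1.80, 30 of 64 against 13 of 21 cells), were lower too. Of 14 suprabasal genes 10 were considered in each region, and their medians were 0.11, -0.28 and -0.01. The list did not move as 1 in the wound bed, where Krt1, an early differentiation keratin, was higher at 2150 against 574 CPM (1.90, 37 of 64 against 9 of 21 cells). Mt4, a metallothionein of stratified epithelium, was higher at 2103 against 549 CPM (1.93, 51 of 64 against 14 of 21 cells). Krt10, the partner of Krt1, stood at 0.81 without meeting the rule. Sbsn was lower in the distal region (-1.14), in 8 of 14 alternatives.

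Basal and basement membrane genes that met the rule were higher, most of them in the distal region. Of 15 list members 5 of 12 considered were higher in the distal region, 2 of 12 in control and 2 of 10 in the wound bed, and none was lower. The shares of all genes considered that were higher are 5.42%, 5.66% and 9.81% in the same order, so that in control and the wound bed the count lies about 1 gene above such a share. Median log2 ratios were 0.91, 0.38 and 0.35, against 0.12, -0.03 and 0.16 for all genes. In the distal region Krt5 (chr15:101707070-101712898, minus strand) had mean levels of 813 against 294 CPM in batch 1 and 1118 against 626 CPM in batch 2, with reads in 30 of 41 and 21 of 39 cells. Its ratio of 1.03 became -0.09 with counts summed and scaled by TMM and -0.27 with counts summed alone. Col17a1, the hemidesmosomal collagen XVII (chr19:47646344-47692094, minus strand), had 667 against 182 CPM and 1108 against 665 CPM, with reads in 34 of 41 and 25 of 39 cells. Its ratio of 1.0 lay on the edge of the rule, which it met in 8 of 14 alternatives. In every plate the mean of Krt5 and of Col17a1 was higher in the expressing cells, although the ranges over cells overlapped. The rule itself demands this order of the distal plates. Itga6, the alpha-6 integrin (chr2:71745616-71858416, plus strand), had the largest distal ratio of the list, at 117 against 9.12 CPM in batch 1 and 196 against 14.2 CPM in batch 2 (3.66). It met the rule in all 14 alternatives, with reads in 17 of 41 and 10 of 39 cells. It stood at -0.75 in the wound bed with batches of opposite sign, and in control at 0.52 with the batches again apart. The laminin chains Lama3 (1.19) and Lamb3 (1.18) were higher in the distal region.

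Itgb4, the beta-4 integrin that pairs with alpha-6 in hemidesmosomes, was higher in control at 40.4 against 5.01 CPM (2.78, 9 of 26 against 10 of 57 cells). It was read in 16 of 64 expressing and 0 of 21 negative wound bed cells. With a floor of 3 counts over the group, the 87 reads against 0 made its summed level at least 8.58-fold higher. This bound covers counting of reads only, not the spread between cells, and the gene was not considered there. Itgb1, the beta-1 integrin, was higher in control (2.41, 12 of 26 against 11 of 57 cells) and stood at 1.72 in distal and -0.63 in the wound bed. Dst, the hemidesmosomal linker dystonin, was higher in the wound bed at 1112 against 489 CPM (1.18, 60 of 64 against 13 of 21 cells). Krt14, the partner of Krt5, stood at -0.41, 0.79 and 0.35, and Trp63, the transcription factor of basal cells, at 0.88, 0.71 and 0.52, without meeting the rule in any region.

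Single genes of cell surface proteins were higher, while the adhesion list as a whole lay near all genes. Cdh13, which encodes the GPI-anchored T-cadherin (chr8:118283733-119324921, plus strand), was higher in control and the distal region. Its mean levels in batches 1 and 2 were 93.8 against 20.7 and 318 against 81.4 CPM in control, and 41.8 against 4.82 and 222 against 22.4 CPM in distal. In the wound bed they were 78.1 against 29.6 and 169 against 22.8 CPM, a ratio of 2.39, but 17 of 64 and 5 of 21 cells had a read, so that the shares differed too little for the rule. All 6 plates had the higher mean in expressing cells, which the rule itself demands of the control and distal plates. In control its ratio of 1.93 became -0.37 among cells with 2000 or more genes. Lrp4, a receptor for Wnt inhibitors and agrin, was higher in the distal region (2.84, 16 of 41 against 10 of 39 cells) and the wound bed (3.82, 17 of 64 against 4 of 21). Fat2, a giant cadherin of keratinocytes, was higher in both as well (2.24 and 2.58). In the wound bed Gja1, which encodes the gap junction protein connexin 43, stood at 731 against 253 CPM (1.53, 45 of 64 against 7 of 21 cells). Cd24a, a GPI-anchored surface glycoprotein, stood at 559 against 163 CPM (1.77, 40 of 64 against 7 of 21 cells). Gja1 met the rule there in all 14 alternatives and Cd24a in 13. Of the 20 surface adhesion and junction genes listed, 16 were considered in the wound bed, with 2 higher (Gja1 and Cd24a) and 2 lower (Cdh1 and Epcam), where 9.81% and 5.39% of all genes were. Of 15 considered in control 1 was higher, Pkp3, which encodes plakophilin 3 of desmosomes (1.09, and 0.43 without a call with counts summed and scaled by TMM), against 5.66% of all genes. Of 15 in the distal region 0 met the rule. The list medians were 0.11, 0.09 and 0.11, and Cdh13, Lrp4 and Fat2 are not on this list.

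**Figure D4:**
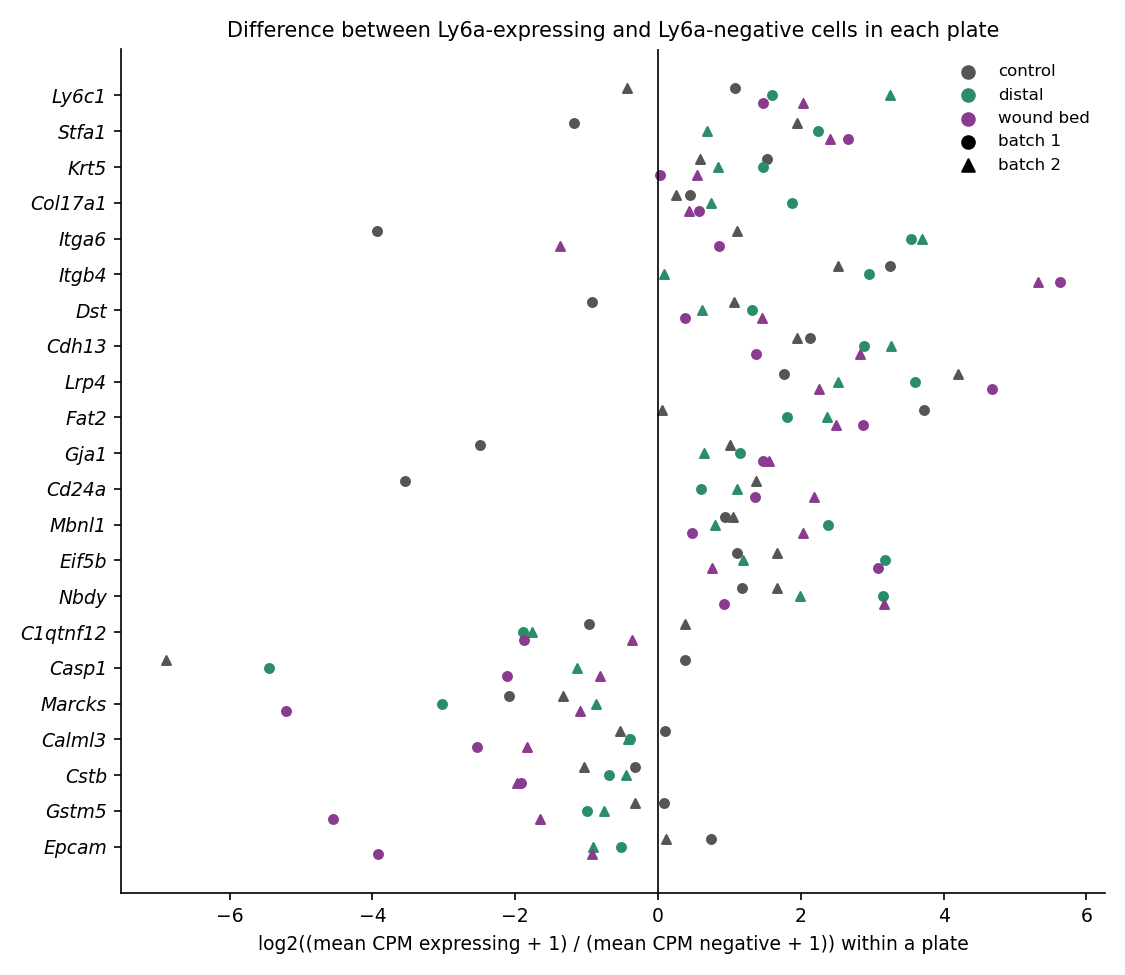
Log2 ratio of mean CPM + 1, Ly6a-expressing over Ly6a-negative cells, within each plate (horizontal axis) for 22 genes; colours are regions, circles batch 1 and triangles batch 2. Cdh13, Lrp4, Fat2, Krt5, Col17a1, Itgb4, Mbnl1, Eif5b and Nbdy lie right of 0 in all 6 plates, and Cstb and Marcks left of 0 in all 6. Where a gene met the size rule in a region, the rule itself demands that both plates of that region lie on the same side.

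Ly6c1, a paralog of Ly6a on the same chromosome (chr15:75044018-75048830, minus strand), was higher in the distal region and the wound bed. In batches 1 and 2 its mean levels were 13.6 against 3.83 and 396 against 40.7 CPM in distal, and 146 against 52.4 and 202 against 48.9 CPM in the wound bed (log2 ratios 3.22 and 1.85). Ly6c1 met the rule in 11 of 14 alternatives in distal and in all 14 in the wound bed. Reads were in 14 of 41 against 4 of 39 distal cells and 39 of 64 against 4 of 21 wound bed cells. In control only 1 of 26 and 2 of 57 cells had a read. The reads of these genes cannot be fully told apart: of 1259 runs of 31 bases in Ly6a transcripts (GENCODE M21), 276 (21.9%) occur in Ly6c1 transcripts and 402 (31.9%) in some other gene. Some Ly6c1 reads may therefore be Ly6a reads, and how many was not tested. Of 21 family members and neighbours 13 had rows. Ly6d and Ly6e, surface antigens of the same fold, met the rule in no region, with Ly6d at 0.29, 0.22 and 0.83 and Ly6e at 0.77, 0.01 and 0.91. Ly6g6c was lower in the distal region (-1.26), which became -0.02 with counts summed alone and 0.16 with TMM scaling as well. Ly6g6e was lower in the wound bed (-1.84, 6 of 64 against 8 of 21 cells), which turned to 0.51 among cells of 2000 or more genes.

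Stfa1, a stefin A inhibitor of cysteine proteases (chr16:36276951-36285373, plus strand), was higher in the distal region and the wound bed. In batches 1 and 2 its levels were 556 against 117 and 479 against 297 CPM in distal (1.19), and 579 against 90.9 and 1022 against 191 CPM in the wound bed (2.50). Reads were in 18 of 41 against 8 of 39 and 39 of 64 against 8 of 21 cells, and in control in 2 of 26 and 3 of 57. Near copies of this family may share reads, and Stfa3 stood at -0.16 and -0.13 in the same regions. Csta1, of the same family, was higher in the wound bed (1.19, 37 of 64 against 7 of 21 cells), as was Fgfbp1, a secreted carrier of fibroblast growth factors (1.25, 50 of 64 against 11 of 21 cells, but 0.57 without a call with counts summed and scaled by TMM). Krt6a, the keratin induced by wounding, was lower in control (-2.42, 8 of 26 against 21 of 57 cells) and stood at -1.44 and -0.27 in distal and wound bed. Of 13 wound and stress genes, 1 of 4 considered was lower in control and 1 of 5 was higher in distal. In wound bed cells 2 of 7 were higher with 1 lower. The matching shares of all genes are 3.0% in control, 5.42% in distal, and 9.81% and 5.39% in the wound bed. With so few genes considered, these counts say little about the list.

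No gene of the interferon and class I presentation list met the rule. Ly6a is known as an interferon-induced gene. Of 28 list members 7, 10 and 4 were considered, with medians of -0.17, -0.29 and -0.32, against -0.03, 0.12 and 0.16 for all genes. Of all genes considered 5.66%, 5.42% and 9.81% were higher and 3.0%, 3.99% and 5.39% lower. The absence of a call among so few members therefore says little about this list. H2-K1 stood at -0.17, 0.36 and -0.69, B2m, the class I light chain, at 0.17, -0.55 and -0.48, and Ifitm3 at 0.61, 0.47 and -0.16. Of 21 glutathione and antioxidant enzymes 17, 16 and 16 were considered in control, distal and wound bed, and none met the rule in control. In the wound bed 3 were lower, against 5.39% of all genes. These were Gstm5, a glutathione transferase, at 81.8 against 334 CPM (-2.01, 16 of 64 against 11 of 21 cells), Sod2 (-1.36) and Gclm (-1.46). In the distal region 1 of 16 was lower and 1 higher, near the 3.99% and 5.42% of all genes. The lower one was Gstm2 (-1.09), and the higher one Gpx1 (1.16), a peroxidase that uses glutathione. Each met the rule in 9 of 14 alternatives. With counts summed and scaled by TMM Gstm2 stood at -0.58 and Gpx1 at 0.30, both without a call. Gstm2 turned to 0.41 among cells of 2000 or more genes, and Gpx1 stood at 0.97 with mitochondrial transcripts left out of cell totals. The list medians of -0.22, -0.24 and -0.14 lay slightly under those of all genes. Of sebaceous gland genes 2 of 5 considered were lower in the wound bed. These were the lipid enzymes Fasn (-2.32, 12 of 64 against 5 of 21 cells) and Elovl5 (-2.89, 3 of 64 against 6 of 21). In the distal region 1 of 4 was lower, Mgst1 (-1.28, in 10 of 14 alternatives). Of lower follicle genes only Sox9 met the rule, lower as 1 of 4 considered in the wound bed (-1.74, 11 of 64 against 7 of 21 cells). The shares of all genes that were lower are 5.39% in the wound bed and 3.99% in distal. Counts from so few genes say little.

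Of 16 immediate early genes, which cell dissociation can induce, 2 of 11 considered were higher in the distal region, Jun (1.97) and Ier2 (2.21). Dusp1 (2.79) was 1 of 9 in the wound bed, and Nfkbia (1.15, in 10 of 14 alternatives) 1 of 9 in control. The shares of all genes considered that were higher are 5.42%, 9.81% and 5.66% in the same order, so a single call says little. The list medians were 0.82, 0.25 and -0.13, against 0.12, 0.16 and -0.03 for all genes. The distal median was close to the 0.91 of the basal list. Of 16 cell cycle genes only Mki67, a marker of dividing cells, met the rule. It was higher in the wound bed (2.50, 19 of 64 against 1 of 21 cells, so that a single cell made the whole negative mean) and in control (1.03, 7 of 26 against 6 of 57), the latter in 6 of 14 alternatives with a ratio of 0.15 in batch 2. Few of the list were read in enough cells, 5 in control, 6 in distal and 5 in wound bed cells. Their medians were 0.61, -0.20 and 1.28, against -0.03, 0.12 and 0.16 for all genes. Since 5.66% of all genes were higher in control and 9.81% in the wound bed, 1 call of 5 says little about the list. All 5 in control lay above 0, 4 of them in both batches, as did 4 of the 5 in the wound bed in both batches. The wound bed median is that of Pcna, a clamp of DNA replication, which was read in 34 of 64 against 10 of 21 cells. Top2a, a topoisomerase of dividing cells, was read there in 10 of 64 against 4 of 21 cells, and neither met the rule.

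**Figure D5:**
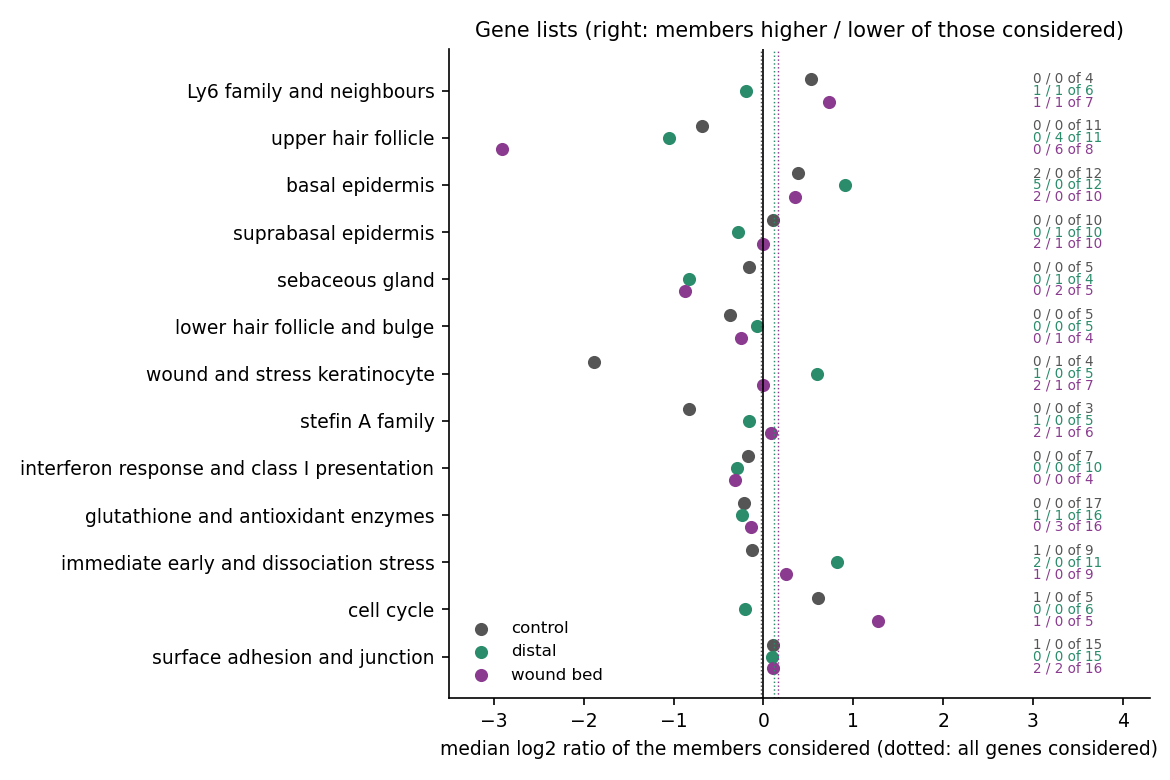
Median log2 ratio (horizontal axis) of the considered members of each gene list in each region, with the numbers of members higher and lower at the right and the median of all genes considered as a dotted line. The upper hair follicle list lies lowest in the wound bed at -2.91, with 6 of 8 members lower against 5.39% of all genes considered. The basal epidermis list lies at 0.91 in the distal region, with 5 of 12 higher against 5.42%.

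The 5 genes higher in all 3 regions were Mbnl1, Eif5b, Eif3d, Nbdy and a gene known only by the code 3110040N11Rik. Mbnl1, a splicing regulator, had mean levels of 279 against 139 CPM in control, 431 against 168 CPM in distal and 490 against 180 CPM in the wound bed, with ratios of 1.0, 1.36 and 1.44. Reads were in 17 of 26 against 31 of 57, 31 of 41 against 27 of 39 and 53 of 64 against 15 of 21 cells. The translation initiation factor genes Eif5b and Eif3d stood at 1.55, 2.07 and 1.10 and at 1.48, 1.18 and 1.19. Nbdy, which encodes a small protein of RNA decay bodies, stood at 1.56, 2.20 and 2.12. Among cells of 2000 or more genes Eif5b turned to -0.12 in control and Eif3d to -0.38 in the wound bed. With counts summed and scaled by TMM, Eif5b in control (0.45), Eif3d in the wound bed (0.28) and Nbdy in the distal region (0.26) lost the call. Of 14 alternatives, the rule was met in control, distal and wound bed in 9, 12 and 12 for Mbnl1, in 10, 12 and 11 for Eif5b, in 12, 9 and 6 for Eif3d, and in 13, 10 and 9 for Nbdy. Among genes lower in 2 regions with the same sign in the third were, beside the upper follicle genes, Casp1, the inflammatory caspase, in distal (-3.4) and wound bed (-1.46), the latter turning to 0.04 among cells of 2000 or more genes. Marcks, an actin-linked substrate of protein kinase C, was lower in distal (-1.21) and wound bed (-2.51) and stood at -1.50 in control. C1qtnf12, a secreted C1q-like protein, was lower in distal (-1.81, 16 of 41 against 28 of 39 cells, but -0.49 without a call with counts summed and scaled by TMM) and wound bed (-1.10, 13 of 64 against 9 of 21 cells).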

How the data were processed

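Read counts, whole numbers for 27003 genes in 250 cells, were taken as deposited. Libraries were made by Smart-Seq2, a full-length method without molecular identifiers, per the labels' protocols. The build mm10 (GRCm38) and the tools R 4.0.3, Seurat and Salmon 0.13.1 are named in the submitters' processing notes, without the role of each. How estimates were summed to genes and rounded is not given in the sources used here. Every cell column matched a label. Reads per cell ranged from 3857 to 3119120 (median 49298), so precision differs widely between cells. No doublets were called and no free RNA was subtracted.

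Cells were grouped by Ly6a as described, and counts were divided by each cell's total to give CPM (Python 3.11.15, numpy 2.4.6, pandas 2.3.3, scipy 1.17.1). Levels were averaged over cells and log2 ratios used a pseudocount of 1 CPM. Shares at 10000 reads are hypergeometric expectations, with the 12 shallower cells of the groups left out. For the fold bounds on summed reads, a gene without reads in a group was given a floor of 3 counts. Its log2 ratio used 0 CPM and the pseudocount, without that floor. Named genes were up to 15 per direction that met the size rule in at least 2 regions with the same sign in the third, then up to 6 per direction and region by the smaller within-batch ratio, list members meeting the rule, Lrig1, Gata6 and Ly6 family members. Predicted, ribosomal protein and mitochondrial genes and pseudogenes were not named, except 1 code-named gene that belongs to a count of 5 and was named after its values were seen. Values of some list members are not reported here. The groups, the 17 gene lists and the rules were chosen with earlier results of these data known. The contrast was run on simulated data with known differences, where unchanged genes also met the size rule, in numbers of the same order as in the data, so the counts of genes per region are weak evidence. Alternatives were counts summed per group with TMM factors from edgeR 4.0.16 (R 4.3.3), other scalings, filters, thresholds and cell selections, and each batch left out; counts summed without TMM were added after seeing the data. As no animal is named, there is no error between animals.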

Additional observations from a re-analysis of the deposited data

How the results depend on the processing

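The numbers of genes meeting the size rule moved with the settings. Requiring reads in 30% of cells gave 99 higher and 57 lower genes in control, 123 and 84 in distal, and 141 and 60 in the wound bed, since fewer genes were considered, with 2 higher in all 3 regions. Cells of 2000 or more genes alone, 5 of them negative wound bed cells, gave 441 and 328, 553 and 456, and 1071 and 767, with 17 higher and 4 lower in all 3 regions. Leaving out a batch, which also removes the demand for a shared sign, gave 473 to 715 higher and 230 to 406 lower in control, 468 to 580 and 299 to 795 in distal, and 583 to 584 and 389 to 645 in the wound bed, with 7 to 15 higher and 4 to 11 lower in all 3 regions. A size of 1.5 gave 152 higher in control, 120 lower in distal and 1 higher in all 3 regions. Genes higher in all 3 regions numbered 2 with summed counts scaled by TMM, 1 with a pseudocount of 10 CPM, 3 with Ly6a at 100 CPM or more and 2 without cells rich in predicted genes. Genes lower in all 3 regions numbered 1 with summed counts, 1 without a filter on low genes, 1 in cells of 20000 or more reads and 2 without cells rich in predicted genes. The other counts stayed within 1.5 times. Ratios turned with summed counts for Ly6g6c (0.16), Defb6 (1.48), Krt5 (-0.09) and Mir205hg (-0.61), all in distal, when TMM scaling was applied. Counts summed without TMM, a setting chosen after seeing the data, gave 2 genes higher and 1 lower in all 3 regions and turned Defb6 (1.30), Krt5 (-0.27) and Mir205hg (-0.79) but not Ly6g6c (-0.02). Of 113 named ratios 20 lost the call without turning with summed counts scaled by TMM, and 22 among cells of 2000 or more genes. With batch 1 left out 32 lost the call, and with batch 2 left out 45 did. Requiring reads in 30% of cells lost 51 calls. No ratio could turn in these last settings, because the rule demands the same sign in each batch and the filter leaves ratios unchanged. Among cells of 2000 or more genes ratios turned for Cdh13 (-0.37) and Eif5b (-0.12) in control and Gstm2 (0.41) in distal. In the wound bed they turned for Ly6g6e (0.51), Casp1 (0.04) and Eif3d (-0.38). For turned ratios the cause was not tested. Single cells could not be paired, because the replicate numbers only name cells, and no result comes from a test. Each plate holds both groups, so they were also compared within plates, and the mean of those ratios kept 108 of the 113 calls. The size rule itself already demands the same sign in both batches. Depth limits what a negative cell means, and few cells with reads set many of the means.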

Other observations

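Genes with general cell functions were among the highest by the ranking over regions. Ggta1, which encodes an enzyme that adds terminal galactose to surface glycans, was higher in Ly6a-expressing cells of control (2.45, 10 of 26 against 4 of 57 cells) and distal (3.46, 12 of 41 against 5 of 39). In the wound bed it had 308 reads in 13 of 64 expressing cells and 0 in 21 negative cells, at least 30.4-fold higher by summed reads with a floor of 3 counts over the group. Rbbp8, a DNA end resection factor, was higher in control (2.37) and distal (2.25) under all 14 alternatives in each. Idh3g, a subunit of a mitochondrial dehydrogenase of the citric acid cycle, was higher in control (1.72) and the wound bed (2.43). Gpsm2, a factor of spindle orientation, was higher in distal (2.56, but 0.75 without a call with counts summed and scaled by TMM) and the wound bed (1.93), where 20 of 64 and 2 of 21 cells had a read and 1 cell gave 93.1% of the negative mean. Tent5a, a poly(A) polymerase, was higher in the wound bed at 211 against 4.89 CPM (5.17, 30 of 64 against 3 of 21 cells). Mir205hg, the host transcript of an epithelial microRNA, had 108 reads in 23 of 64 expressing cells and 0 in 21 negative cells there. This is at least 10.7-fold higher by summed reads. The bounds for Ggta1 and Mir205hg cover counting of reads only, not the spread between cells.

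Among genes lower in control, Golph3, a Golgi protein, had 0 reads in 26 expressing cells and 1454 reads in 19 of 57 negative cells. By summed reads it was at least 250-fold lower against a floor of 3 counts over the group. Here too the bound covers counting of reads only, which came from 19 cells, and not the spread between cells. Golph3 stood at 0.38 in distal and 0.08 in the wound bed. Ldhb, a lactate dehydrogenase subunit, was lower in control (-5.26, 2 of 26 against 19 of 57 cells) and stood at 1.96 and 1.64 in the other regions. Hras and the Mediator subunit Med28 were lower in control (-2.51 and -2.65) and in the wound bed (-1.31 and -1.46), the control values under all 14 alternatives and Hras in the wound bed under 10. Whether the regions differ in these ratios was not tested.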
